A study of Mus musculus with 10 samples.

Results

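NLG919, a small molecule that inhibits the IDO1 pathway of tryptophan breakdown, was compared with no NLG919 in mouse tumours that had all been given MK1775, an inhibitor of the WEE1 kinase. The comparison used 8 of the 10 libraries of the series: 4 libraries of the groups with NLG in their label against 4 libraries of the groups of MK1775 alone. Both arms held the same 2 forms of MK1775, and the effect was averaged over them. The members were chosen by their labels, not by a measured value. The 2 negative control libraries stood in neither arm, and their values are given beside the genes described library by library.

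The tumours grew under the skin from 4T1, a mammary carcinoma line of the mouse, and were taken on day 14. Each of the 4 groups held 2 libraries: Free-MK1775 and Lipo-MK1775 without NLG919, and Free-MK1775+NLG919 and Lipo-MK1775+NLG with it. For the group labelled Lipo-MK1775+NLG, the agent was read as NLG919 from the design text, which also gives PBS as the control. All 4 groups carried MK1775, so the comparison asks what NLG919 changed on top of it, and tumours given NLG919 without MK1775 were not analysed here. The labels give no doses, do not say what Free and Lipo are made of, and do not say whether replicates were separate mice. The p-values therefore cover only the spread between these samples, which may be technical.

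IDO1 and IDO2, with TDO2 in liver, open the pathway that turns tryptophan into kynurenine. Kynurenine can bind the aryl hydrocarbon receptor, a transcription factor encoded by Ahr, and loss of tryptophan is sensed by the GCN2 and ATF4 stress pathway, both of which restrain T cells. Ido1 is itself induced by interferon gamma, so its mRNA is usually read together with the other interferon gamma genes. WEE1 holds CDK1 inactive before mitosis.

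The values were FPKM, fragments scaled to transcript length and library size, summed per gene name. Mitochondrially encoded (MT) transcripts were removed and each library was rescaled to a sum of 1000000, so a level is a share of the named nuclear FPKM and is called rescaled FPKM from here on. MT transcripts made up 2.88% to 4.82% of the summed FPKM in 5 of the 8 libraries. They made up 64.1% and 56.0% in Lipo-MK1775 and 47.3% in Free-MK1775+NLG919 replicate 2. These 3 libraries of high MT share fall 2 to the arm without NLG919 and 1 to the arm with it. They also held more nuclear signal in assembled transcripts that carry no gene name, 16.7% to 19.6% against 12.02% to 12.51% in the other 5 libraries. Depth is known only in relative terms and ran from 1 to 1.77 across the 8 libraries. It was read from the most frequent value of FPKM times length over single-exon transcripts alone in their locus. The carcinoma markers Krt8 (350 to 866 rescaled FPKM) and Krt18 (794 to 1248) were high in every library, whereas Epcam was at 0 to 7.37 and Cdh1 at 0.709 to 10.1. In such bulk tissue, fewer cells of a type and less RNA per cell cannot be told apart.

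Averaged over form, the genes with the largest differences among those that kept the arms apart included Rnase2a, Rarres2, Il24 and Ccl11, lower with NLG919, and the iron exporter gene Slc40a1, higher with it. No gene passed the test. Of 13807 genes tested, limma called 0 at an adjusted p under 0.05 (0%), the smallest adjusted p was 0.457, and 754 genes (5.46%) had an unadjusted p under 0.05. The differences below are therefore described by their values, and none is called a change.

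In 190 genes (1.38% of those tested), every library with NLG919 lay on the same side of every library without it. Of these, 139 (1.01%) were higher with NLG919 and 51 (0.369%) were lower. The smallest p that an exact two-sided permutation test of 4 against 4 libraries allows is 0.0286, over 70 splits, so separation by itself carries no more than that. The same 0.0286 is the share of genes that random labels would separate on average, and the 1.38% seen here lies below it. That share is an average over splits, and in the split used here the 3 libraries of high MT share lie in both arms. Without Free-MK1775+NLG919 replicate 2 the count was 1219, where fewer libraries also separate more easily. No conclusion on NLG919 is therefore drawn from the number of separating genes. The split between higher and lower depended on the scaling. With a common sum, 71.1% of all genes had a log2 difference above 0 and the median gene stood at 0.15, against 0.01 after median-of-ratios scaling and after quantile scaling, where 148 and 145 genes were higher and 134 and 137 lower. Differences from 0 to 0.15 are thus within the shift of the whole table, and those below 0 lie farther from the median gene than from 0. Of the 190 genes, 42 (22.1%; 21 higher and 21 lower) were also separated the same way under both other scalings and after unnamed assembled transcripts had been added to their genes. They are referred to as the retained genes, and 33 of them carry a gene symbol that is not a predicted gene, a pseudogene or a miRNA locus. At a log2 difference of at least 1 in size there were 34 higher and 22 lower separating genes. With predicted genes, pseudogenes and miRNA loci left out, the 12 largest in each direction are described here. Of these 24 differences, 12 moved by more than 1.5 times when the 3 libraries of high MT share were left out, and 11 when assembled transcripts were added. Mir7024, a miRNA locus left out here, would rank among the 12 higher genes with 1.54.

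**Figure D1:**
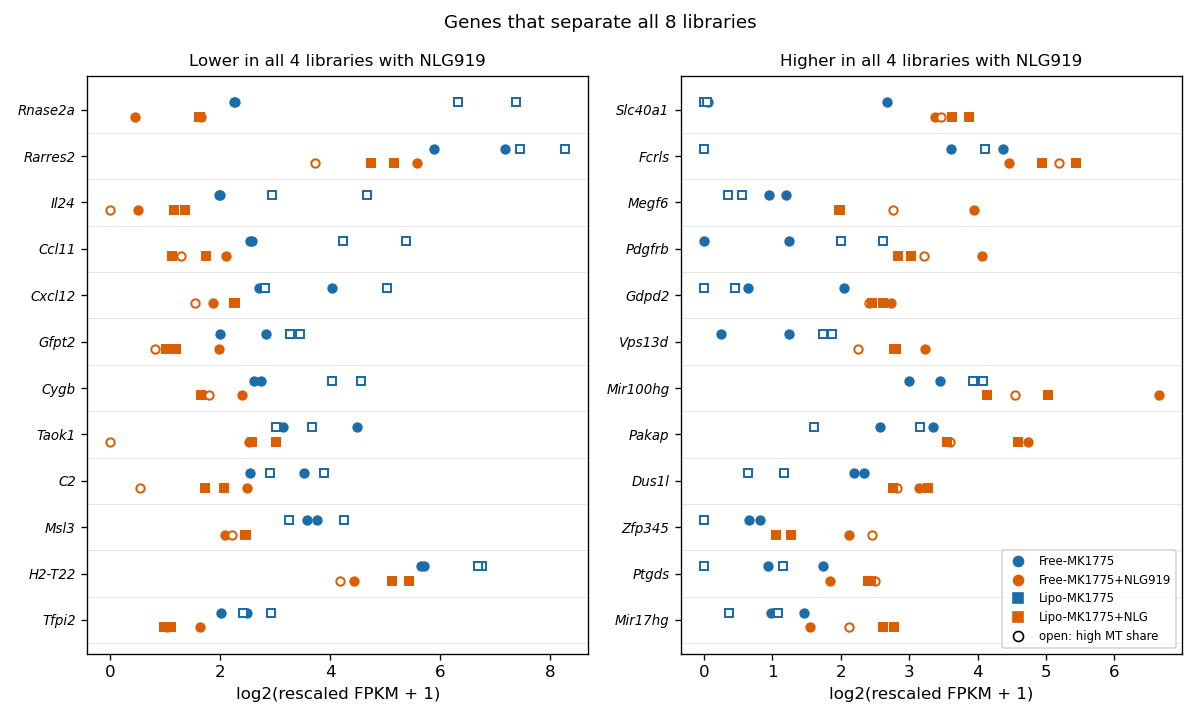
Level of the 24 separating genes with the largest differences, 12 in each direction with predicted genes, pseudogenes and miRNA loci left out, on the log2(rescaled FPKM + 1) scale, 1 point per library (blue without NLG919, orange with it, circles Free, squares Lipo, open symbols the 3 libraries of high MT share). In most genes that were lower, the open squares of Lipo-MK1775 lie farthest to the right, as in Rnase2a at 165 and 78.6 rescaled FPKM.

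The sequences shown here belong to members of the 51 lower genes whose promoters held the interferon-stimulated response element searched for, GAAA and GAAA with any 2 bases between them, on either strand. RefSeq promoters of build GRCm38.p6 (a window of 300 bases at the start of each gene, in a build other than the GRCm39 of the files) were at hand for 31 of the 51 lower genes and held it in 3 (9.68%), Ebf1, H2-T22 and Ifi205. They were at hand for 104 of the 139 higher genes and held it in 1 (0.962%), Pilra. The motif was in 3.49% of all 27025 promoters and in 3.23% of the 10000 promoters of tested genes. 2 further motifs were searched on either strand. The gamma-activated site, TTC and GAA with any 3 bases between them, was in 6.45% of the lower, 7.69% of the higher and 6.90% of the tested genes' promoters. The core of the xenobiotic response element that the aryl hydrocarbon receptor binds, GCGTG, was in 5 of 31 promoters of lower genes (16.1%) and 58 of 104 of higher genes (55.8%), beside 51.2% of tested genes and 32.5% of all promoters. That motif holds a CpG, and the median number of CpG per promoter was lower in the same set, with 11 in lower genes against 21 in higher and 21 in tested genes. Its part in the difference was not tested. A match describes these letters only, and none of these shares was tested. H2-T22 encodes a non-classical MHC class I molecule that γδ T cells recognise in mice, and Ifi205 a member of the interferon-inducible p200 family. Both promoters lie on the minus strand, H2-T22 at chr17:36042693-36042992 and Ifi205 at chr1:174031706-174032005, and capitals mark the motif on either strand.
H2-T22: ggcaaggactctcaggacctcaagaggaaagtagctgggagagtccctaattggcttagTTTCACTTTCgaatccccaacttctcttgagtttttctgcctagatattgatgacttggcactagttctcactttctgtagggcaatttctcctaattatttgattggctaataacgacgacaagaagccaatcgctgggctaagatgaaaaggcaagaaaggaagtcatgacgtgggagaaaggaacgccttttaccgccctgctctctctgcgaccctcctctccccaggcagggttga
Ifi205: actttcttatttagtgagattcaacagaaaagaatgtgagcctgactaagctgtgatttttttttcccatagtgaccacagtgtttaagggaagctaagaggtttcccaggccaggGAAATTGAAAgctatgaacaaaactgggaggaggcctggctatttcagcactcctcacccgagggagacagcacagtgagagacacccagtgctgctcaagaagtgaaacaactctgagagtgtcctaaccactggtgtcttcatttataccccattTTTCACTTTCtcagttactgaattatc
H2-T22 stood at 49.3 and 51.4 rescaled FPKM in Free-MK1775, 107 and 102 in Lipo-MK1775, 20.7 and 17.0 in Free-MK1775+NLG919 and 33.8 and 42.3 in Lipo-MK1775+NLG. The arms did not overlap, and the control libraries, at 25.3 and 29.0, lay within the range of the NLG919 arm. Its log2 difference was -1.41 (SE 0.19, limma adjusted p = 0.485), and without the 3 libraries of high MT share it was -0.68. With assembled transcripts added the difference was -0.20, the arms overlapped, and Free-MK1775+NLG919 replicate 1 became the highest library at 259. Ifi205 stood at 8.30 and 9.91 in Free-MK1775, 14.9 and 26.5 in Lipo-MK1775, 6.75 and 3.37 in Free-MK1775+NLG919 and 7.51 and 7.67 in Lipo-MK1775+NLG, and it is among the retained genes. The controls stood at 17.3 and 6.06. Its log2 difference of -1.04 was -0.28 without the 3 libraries of high MT share. Ifi205 and 2 further interferon-induced genes were picked for this account after their values had been seen. All were separating genes that were lower, whereas Oas2, of the type I interferon list given below, was higher. Herc6, an interferon-induced HECT-family gene, was separated at 5.87 to 10.6 with NLG919 against 12.7 to 18.6 without, but its log2 difference of -1.04 became -0.15 with assembled transcripts added. Ifi203, of the same p200 family as Ifi205, had a difference of -0.47 that became 0.042.

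Among genes of secreted proteins, Rarres2 encodes chemerin, which attracts macrophages, dendritic cells and NK cells (GRCm39 chromosome 6, 48546630 to 48549723). It stood at 58.0 and 144 rescaled FPKM in Free-MK1775, 174 and 309 in Lipo-MK1775, 46.7 and 12.2 in Free-MK1775+NLG919, and 25.7 and 34.5 in Lipo-MK1775+NLG. The mean was 29.8 ± 14.5 (SD, n = 4) with NLG919 against 171 ± 104 (SD, n = 4) without, and both controls, at 106 and 155, lay above the NLG919 arm. The log2 difference was -2.40 (SE 0.46, limma adjusted p = 0.583), with -1.88 within Free and -2.92 within Lipo. Without the 3 libraries of high MT share it was -1.37.

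Ccl11 encodes eotaxin-1, a chemokine for eosinophils (chromosome 11, 81948649 to 81953781). It stood at 4.94 and 4.81 in Free-MK1775, 40.5 and 17.7 in Lipo-MK1775, 3.32 and 1.43 in Free-MK1775+NLG919, and 1.17 and 2.34 in Lipo-MK1775+NLG. The controls, at 4.09 and 6.70, lay above the NLG919 arm. The separation within Free was narrow, and the log2 difference of -2.11 (SE 0.38) consisted of -0.86 within Free and -3.37 within Lipo. Without the 3 libraries it was -0.90. Rnase2a, which encodes a ribonuclease of the eosinophil-associated family, had the largest difference of the lower genes, -3.22 (SE 0.39), and a similar layout. It stood at 3.79 and 3.78 in Free-MK1775, 165 and 78.6 in Lipo-MK1775, 0.364 and 2.13 in Free-MK1775+NLG919, and 2.07 and 2.08 in Lipo-MK1775+NLG. It was not among the retained genes, the controls stood at 1.10 and 12.1, across both arms, and the difference was -1.03 without the 3 libraries. Rnase2a belongs to a family of near-identical copies, so the split of reads between them is uncertain. Of the list of mast cell, basophil and eosinophil genes, 7 of 10 tested were lower and 3 higher (background 28.9% lower), with a median of -0.30 that was -1.41 within Free and 0.85 within Lipo. The median of all genes was -0.38 within Free and 0.71 within Lipo.

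Cxcl12 encodes the chemokine SDF-1, made by stromal cells (chromosome 6, 117145496 to 117158328). It stood at 5.49 and 15.3 in Free-MK1775, 6.01 and 31.6 in Lipo-MK1775, 2.64 and 1.93 in Free-MK1775+NLG919, and 3.74 and 3.83 in Lipo-MK1775+NLG. The difference was nearly the same in both forms, -1.65 within Free and -1.66 within Lipo, and it was -1.23 without the 3 libraries and -1.10 without Lipo-MK1775 replicate 2. The controls stood at 10.3 and 4.93, above the NLG919 arm. Cxcl11, an interferon-induced ligand of CXCR3, stood at 11.5 and 12.3 in Free-MK1775, 16.8 and 15.8 in Lipo-MK1775, 8.07 and 1.96 in Free-MK1775+NLG919, and 7.71 and 8.66 in Lipo-MK1775+NLG. The log2 difference of Cxcl11 was -1.11 (SE 0.39, limma adjusted p = 0.87), and it was -0.49 without the 3 libraries and -0.71 without Free-MK1775+NLG919 replicate 2. In the control it stood at 19.4 and 9.85, above the NLG919 arm. In the list of chemokines as a whole, 12 of 20 tested were higher and 8 lower, with a median of 0.09. Within the list, the separated members were Ccl11 and Cxcl12.

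Il24, a cytokine of the interleukin-10 family (chromosome 1, 130809811 to 130815191), stood at 2.95 and 3.01 in Free-MK1775, 24.5 and 6.64 in Lipo-MK1775, 0.417 and 0 in Free-MK1775+NLG919, and 1.23 and 1.58 in Lipo-MK1775+NLG. The controls, at 12.9 and 15.1, were far above the NLG919 arm. The log2 difference was -2.14 (SE 0.41) and -0.99 without the 3 libraries of high MT share, but 10 other gene symbols overlap its span, so the assignment of reads is uncertain. C2, a complement protease precursor (chromosome 17, 35081580 to 35117241), stood at 4.81 and 10.4 in Free-MK1775, 6.53 and 13.7 in Lipo-MK1775, 4.61 and 0.448 in Free-MK1775+NLG919, and 2.30 and 3.18 in Lipo-MK1775+NLG. Its difference was -1.52 within Free and -1.503 within Lipo, an average of -1.51 that was -0.94 without the 3 libraries. The controls, at 6.98 and 4.16, reached into both arms. Tfpi2, which encodes a secreted inhibitor of serine proteases (chromosome 6, 3962595 to 3988919), was at 0.974 to 2.11 with NLG919 and at 3.03 to 6.56 without, a log2 difference of -1.27 (SE 0.30). Both control values of Tfpi2, 3.68 and 3.85, lay in the range of the arm without NLG919.

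Of enzymes and matrix genes, Gfpt2 (chromosome 11, 49685005 to 49729440) encodes the first enzyme of hexosamine synthesis. It was at 0.763 to 2.93 with NLG919 and at 3.01 to 9.95 without, and its log2 difference was -1.64 (SE 0.37), -1.03 within Free and -2.25 within Lipo. It was -1.02 without the 3 libraries, and the controls stood at 4.34 and 4.45. Cygb, the gene of cytoglobin, a haem protein of fibroblast-like cells, was at 2.12 to 4.27 against 5.10 to 22.6, a log2 difference of -1.62 with -0.58 within Free and -2.66 within Lipo. It was -0.78 without the 3 libraries, and the controls, at 4.55 and 4.49, lay between the arms. Rhoj, Mfap2 and Gpx7 were picked after their values had been seen, as retained genes with alike differences in both forms. Rhoj, a small GTPase of endothelial cells, differed by -0.99 within Free and -0.97 within Lipo, and its average of -0.98 was -0.55 without the 3 libraries. Mfap2, a microfibril protein, differed by -0.85 and -0.76, and Gpx7, a peroxidase of the endoplasmic reticulum, by -0.83 and -0.85. Over all fibroblast and matrix genes tested, 12 of 20 were lower and 8 higher, the median was -0.36, and it was -0.75 within Free and -0.17 within Lipo. The platelet-derived growth factor receptor gene Pdgfrb, of the same list, went the other way. It stood at 1.36 and 0 in Free-MK1775, 5.12 and 3.01 in Lipo-MK1775, 15.7 and 8.33 in Free-MK1775+NLG919, and 7.13 and 6.12 in Lipo-MK1775+NLG. With assembled transcripts added, its log2 difference of 1.82 was 0.86 and the arms overlapped. The controls stood at 2.02 and 0.

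Some separating genes were separated only while the unnamed assembled transcripts were left out. Hspa8, the constitutive HSP70 chaperone, stood at 2704 and 2461 rescaled FPKM in Free-MK1775, 2596 and 2309 in Lipo-MK1775, 1487 and 1742 in Free-MK1775+NLG919 and 1603 and 1599 in Lipo-MK1775+NLG. The gap between the arms was wide against the spread within them (SD 105 and 171, n = 4 each), and the log2 difference was -0.65 (SE 0.15). With the assembled transcripts of its locus added the difference was 0.10 and Free-MK1775+NLG919 replicate 2 became the highest library, at 5202. The controls of Hspa8, at 2648 and 2558, lay in the range of the arm without NLG919. The kinase gene Taok1 went from -1.55 to 0.22 in the same way (-0.92 without Free-MK1775+NLG919 replicate 2), and Msl3, of a chromatin complex, from -1.41 to -0.33. Of the list of heat shock and chaperone genes, 15 of 18 were higher and 3 lower (background 71.1% higher), and the median was 0.19, close to that of all genes.

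**Figure D2:**
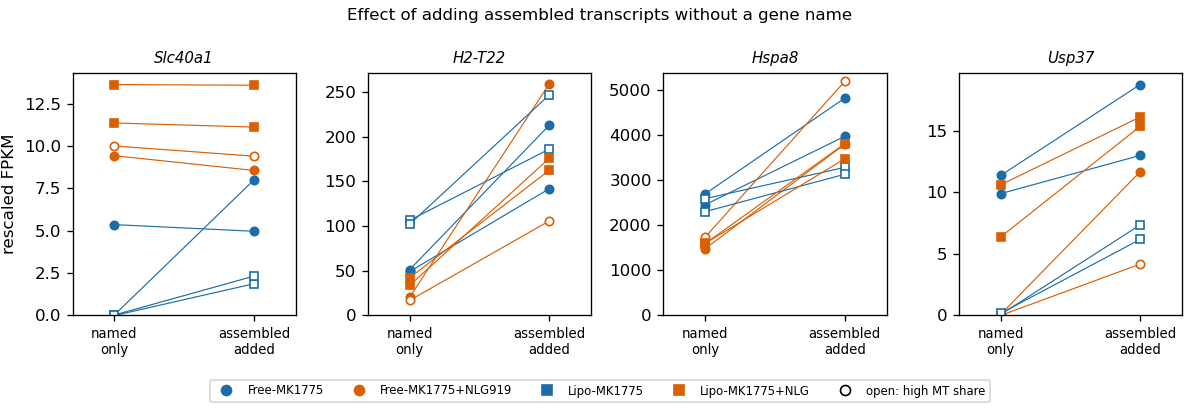
Rescaled FPKM of 4 genes in the 8 libraries, from named transcripts only (left in each panel) and after assembled transcripts without a name were added to the gene of their locus (right). Slc40a1 stays separated with a smaller gap, H2-T22 and Hspa8 lose their separation, and Usp37 rises from 0.0885 to 11.7 in Free-MK1775+NLG919 replicate 1.

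Among the higher genes, Slc40a1 had the largest difference (chromosome 1, 45947228 to 45965683). It encodes ferroportin, the only known iron exporter of mammalian cells, and is high in macrophages that recycle iron. It stood at 0.0369 and 5.36 in Free-MK1775, 0 and 0.0289 in Lipo-MK1775, 9.43 and 10.0 in Free-MK1775+NLG919, and 13.6 and 11.4 in Lipo-MK1775+NLG. The NLG919 arm was tight, at 11.1 ± 1.87 (SD, n = 4), and the arm without it ran from 0 to 5.36, below the first control library at 9.74 and around the second at 5.24. The log2 difference was 2.89 (SE 0.53, limma adjusted p = 0.583). It was 2.27 without the 3 libraries of high MT share and 2.24 without Free-MK1775 replicate 1. As many as 7 other gene symbols overlap the span of Slc40a1, so the assignment of reads is uncertain. With assembled transcripts added, Free-MK1775 stood at 8.0005 and 4.97 and Lipo-MK1775 at 1.87 and 2.32. The arms still did not overlap, but Free-MK1775 replicate 1 came within reach of the lowest NLG919 library, at 8.56, and the difference was 1.27.

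The other iron genes stood near the background as a group: of the 17 tested besides Slc40a1, 12 were higher and 5 lower (background 71.1% higher), and the median was 0.17 beside 0.15 for all genes. Pcbp1, an iron chaperone, was also separated, at 401 to 446 with NLG919 and 290 to 399 without. Its log2 difference was 0.22, 0.088 without the 3 libraries of high MT share and 0.14 without Lipo-MK1775 replicate 2, and the gap between the nearest libraries of the 2 arms was small. Tfrc, the transferrin receptor that takes iron up, stood at 67.0 and 113 in Free-MK1775, 68.8 and 56.1 in Lipo-MK1775, 28.6 and 15.8 in Free-MK1775+NLG919, and 71.1 and 84.6 in Lipo-MK1775+NLG. It was thus lowest in both libraries of Free-MK1775+NLG919, and all 8 lay below the controls at 129 and 155. The averaged difference of -0.83 was made of -1.98 within Free and 0.32 within Lipo, and the difference between the forms did not pass the test (limma adjusted p = 0.0781).

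Of the remaining higher genes, Megf6, a secreted protein with EGF-like repeats (chromosome 4, 154255187 to 154360177), stood at 1.29 and 0.926 in Free-MK1775, 0.467 and 0.277 in Lipo-MK1775, 14.4 and 5.81 in Free-MK1775+NLG919, and 2.92 and 2.98 in Lipo-MK1775+NLG. Its controls, at 0.698 and 0.564, lay within the arm without NLG919, and the log2 difference was 1.91 (SE 0.33). Gdpd2, a glycerophosphodiester phosphodiesterase (chromosome X, 99773479 to 99782501), was at 4.32 to 5.68 with NLG919 and at 0 to 3.15 without, a range that held both controls, 2.93 and 1.58. Ptgds, the prostaglandin D2 synthase (chromosome 2, 25356721 to 25360058), was at 2.57 to 4.65 and at 0 to 2.34, with the nearest libraries of the arms almost touching and the controls at 2.35 and 6.72. Its difference of 1.33 was 0.88 without the 3 libraries of high MT share. These 3 were among the retained genes. Fcrls, an Fc receptor-like scavenger receptor of mouse myeloid cells, was at 21.0 to 42.5 with NLG919 and at 0 to 19.7 without, and the arms overlapped once assembled transcripts were added. Its difference of 1.99 was 0.96 without the 3 libraries, and it ran from 0.96 without Lipo-MK1775 replicate 1 to 3.01 without replicate 2. Mir100hg, the host transcript of miR-100, was at 16.6 to 99.8 against 6.95 to 15.9, with the highest value in Free-MK1775+NLG919 replicate 1, without which its difference of 1.48 was 0.96. Both controls of Mir100hg, 26.7 and 18.6, lay in the range of the NLG919 arm. A further 5 genes of the 12 largest lost their separation with assembled transcripts added. Their log2 differences went from 1.49 to 0.70 in Vps13d, a lipid transfer protein gene, and from 1.45 to 0.03 in Pakap, an anchoring protein of protein kinase A. They went from 1.41 to 0.42 in Dus1l, a tRNA-modifying enzyme gene, and from 1.36 to 0.62 in Zfp345, a zinc finger gene. In Mir17hg, the host of the miR-17 to miR-92 cluster, the difference went from 1.29 to 0.17. Dus1l was at 0.79 and Zfp345 at 0.74 without the 3 libraries of high MT share. A further 4 separating genes with small differences were picked after their values had been seen. Tyrobp, a myeloid signalling adaptor, was at 466 to 528 with NLG919 and 342 to 459 without, and Cyba, a subunit of the phagocyte NADPH oxidase, at 368 to 513 and 259 to 343. Trp53 was at 73.9 to 86.7 against 47.0 to 73.5, and Casp8, the initiator caspase of death receptors, at 93.7 to 97.5 against 69.8 to 93.4. The differences of 0.43 in Trp53 and 0.22 in Casp8 were 0.21 and 0.078 without the 3 libraries, and without Lipo-MK1775 replicate 1 that of 0.29 in Tyrobp was 0.18.

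The direct target pathway of NLG919 was next. Ido1 stood at 10.9 and 10.95 in Free-MK1775, 6.60 and 3.33 in Lipo-MK1775, 4.25 and 0 in Free-MK1775+NLG919, and 4.44 and 3.35 in Lipo-MK1775+NLG. It was thus highest in Free-MK1775 and in the control (10.6 and 9.27), and the arms overlapped through Lipo-MK1775. The mean was 3.01 ± 2.06 (SD, n = 4) with NLG919 and 7.95 ± 3.69 (SD, n = 4) without, and the log2 difference of -1.31 (SE 0.52) did not pass (limma adjusted p = 0.893). It was -2.38 within Free and -0.24 within Lipo, with no call of the difference between forms (limma adjusted p = 0.158). Among the 5 libraries of low MT share it was -1.26, and without Free-MK1775+NLG919 replicate 2, listed at 0, it was -0.71. Ido2 was low throughout, at 0 to 3.45, with a log2 difference of 0.32 that was 1.302 without the 3 libraries and -0.65 with assembled transcripts added. Tdo2, at 0.130 to 0.790, fell below the filter on low values and was not tested.

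Kyat1, a kynurenine aminotransferase that leads from kynurenine to kynurenic acid, was the separated member of the tryptophan and kynurenine list. It stood at 4.89 and 4.49 in Free-MK1775, 2.11 and 2.26 in Lipo-MK1775, 6.23 and 6.32 in Free-MK1775+NLG919, and 5.44 and 6.14 in Lipo-MK1775+NLG. The log2 difference was 0.72 (SE 0.27, limma adjusted p = 0.882), 0.36 within Free and 1.09 within Lipo, and without the 3 libraries of high MT share it was 0.28. Of the 17 genes of that list, 10 were tested, 7 higher and 3 lower, with a median of 0.16 beside 0.15 for all genes.

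Ahr stood at 37.2 and 23.04 in Free-MK1775, 17.6 and 10.4 in Lipo-MK1775, 44.2 and 20.4 in Free-MK1775+NLG919, and 30.2 and 38.9 in Lipo-MK1775+NLG. The arms overlapped, and the log2 difference of 0.66 was 0.04 within Free, 0.34 without the 3 libraries of high MT share and 0.39 without Free-MK1775+NLG919 replicate 1. Cyp1b1, a target gene of the receptor, differed in opposite directions, -0.38 within Free and 2.31 within Lipo, where it went from 17.9 and 23.5 to 110 and 101.5. The average of 0.97 was 0.38 without the 3 libraries. The difference between the forms did not pass the test (limma adjusted p = 0.0714), and Lipo-MK1775 was below the control (55.3 and 60.6). Of 8 genes of the receptor list tested, 6 were higher and 2 lower, with a median of 0.15. In the list of ATF4 and the unfolded protein response, 12 of 21 were higher and 9 lower. Chac1, an ATF4 target that degrades glutathione, went from 32.6 and 44.5 to 17.4 and 13.1 in Free and from 27.6 and 33.7 to 52.6 and 44.4 in Lipo, an average of -0.32 that was -0.14 without the 3 libraries and -0.21 without Free-MK1775 replicate 2. The controls of Chac1, 64.0 and 76.9, lay above all 8 libraries.

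**Figure D3:**
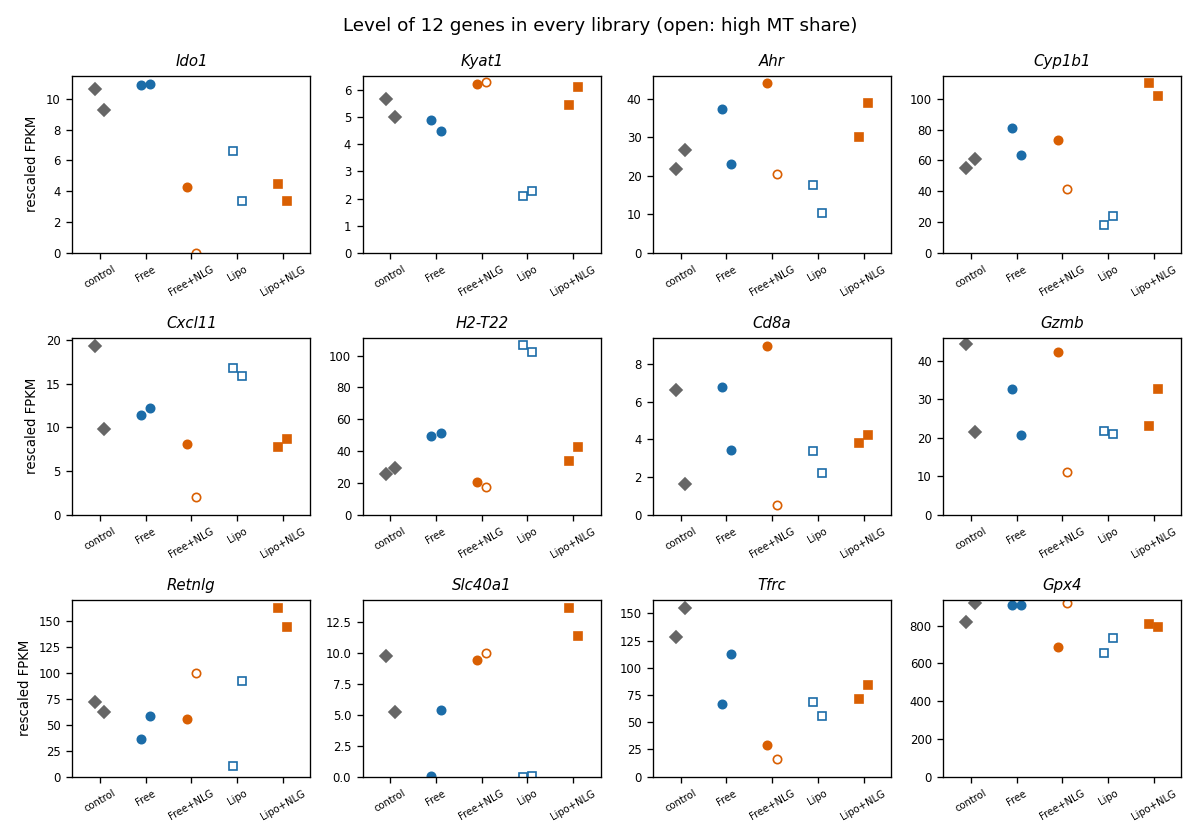
Rescaled FPKM of 12 genes in all 10 libraries, grouped by label (grey control, blue without NLG919, orange with it, open symbols the 3 libraries of high MT share); each vertical axis starts at 0. Ido1 is highest in the control and Free-MK1775, and Kyat1 and Cyp1b1 are lowest in Lipo-MK1775. Free-MK1775+NLG919 replicate 2 lies below the rest of the NLG919 arm in Ido1, Cxcl11 and Cd8a, but not in Kyat1, Slc40a1 or Retnlg.

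Interferon gamma response genes were mostly lower with NLG919: 18 of 20 tested were lower and 2 higher (background 28.9% lower), with a median of -0.47 beside 0.15 for all genes. None was called, and 1, Cxcl11, was separated. The median was -1.73 within Free and 0.49 within Lipo, beside -0.38 and 0.71 for all genes. The mean log2 level of the 20 genes was 5.88 and 5.68 in Free-MK1775, 5.70 and 2.77 in Free-MK1775+NLG919, 4.97 and 4.98 in Lipo-MK1775, and 5.43 and 5.54 in Lipo-MK1775+NLG. Free-MK1775+NLG919 replicate 2, of high MT share, thus stood far below every other library. Without the 3 libraries of high MT share, 3 of 20 were higher, with a median of -0.37. Irf1, an interferon-induced transcription factor, was picked after its values had been seen. Irf1 stood at 67.1 in Free-MK1775+NLG919 replicate 2 and at 136 to 269 in the other 7 libraries. Ifng itself was at 0 to 2.42 with NLG919 and 0.286 to 2.26 without, and the log2 difference was 0.21. Cxcl9, another interferon-induced CXCR3 ligand, ran from 0.125 to 11.2 with no order by arm, and its log2 difference of -0.27 (SE 0.86) was 0.59 without the 3 libraries.

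Type I interferon-stimulated genes were lower in 16 of 20, with a median of -0.12 that was 0.10 without the 3 libraries. It was -0.39 with the MT share as a covariate and -0.11 with the MT class (high or low share) as a term. The median of all genes was -0.10 and -0.01 in these fits. The largest difference of the list was a rise, 1.00 in Oas2. That of Oas2 was 0.09 without the 3 libraries and 0.24 with assembled transcripts added, and its arms overlapped. MHC class I presentation genes were lower in 10 of 16, with a median of -0.14 (0.05 without the 3 libraries), and H2-T22 was their separated member. Their median was -0.84 with the MT share as a covariate and -0.33 with the MT class as a term. Of the checkpoint and regulatory T cell list, 9 of 14 were lower, with a median of -0.04. Cd274, which encodes the checkpoint ligand PD-L1, stood at 0.174 in Free-MK1775+NLG919 replicate 2 and at 23.2 to 38.1 in the other 7 libraries, and its difference of -1.07 was -0.09 without the 3 libraries. Pdcd1lg2, which encodes PD-L2, stood at 10.1 and 8.64 in Free-MK1775, 21.6 and 18.9 in Lipo-MK1775, 10.2 and 1.36 in Free-MK1775+NLG919, and 2.37 and 9.02 in Lipo-MK1775+NLG. Its difference of -1.44 was -0.51 without the 3 libraries and -0.88 without Free-MK1775+NLG919 replicate 2, and the controls stood at 6.73 and 12.6. Foxp3, the regulator of regulatory T cells, was at 1.65 to 4.47 with NLG919 and at 1.65 to 3.22 without, a difference of -0.06.

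Markers of cytotoxic T and NK cells were lower in 13 of 17 and higher in 4, with a median of -0.29, which was 0.13 without the 3 libraries of high MT share. With the MT share as a covariate it was -0.81 and 0 of 17 were higher. With the MT class as a term it was -0.41 and 1 of 17 was higher. Cd8a, the CD8 co-receptor, stood at 6.80 and 3.41 in Free-MK1775, 3.39 and 2.22 in Lipo-MK1775, 8.96 and 0.508 in Free-MK1775+NLG919, and 3.78 and 4.23 in Lipo-MK1775+NLG. The arm with NLG919 thus held both the highest and the lowest library, and the log2 difference was -0.09 (SE 0.57), or 0.10 without the 3 libraries. Gzmb, a granzyme of killer cells, was at 11.003 to 42.2 with NLG919 and at 20.6 to 32.6 without, a difference of 0.05 (SE 0.41) that was 0.28 without the 3 libraries. Gzma had the largest difference of the list, -1.14, which was -0.0070 without the 3 libraries, and Cd4, of helper T cells, had -0.76, which was -0.11. Without Free-MK1775+NLG919 replicate 2 Gzma was at -0.64, and without Lipo-MK1775+NLG replicate 1 Cd4 was at -0.48.

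B and plasma cell genes were lower in 6 of 7, with a median of -0.62. Jchain, the joining chain of secreted antibodies, stood at 7.74 and 7.98 in Free-MK1775, 48.3 and 16.6 in Lipo-MK1775, 9.75 and 0 in Free-MK1775+NLG919, and 2.50 and 4.91 in Lipo-MK1775+NLG. The controls stood at 8.42 and 7.24. Its difference of -2.06 was -0.55 without the 3 libraries and -1.21 without Free-MK1775+NLG919 replicate 2, listed at 0, and that of the immunoglobulin gene Ighg2b, -1.59, was -0.44. Dendritic cell and MHC class II genes were lower in 11 of 13, with a median of -0.64. Without the 3 libraries the median was 0.15 and 9 of 13 were higher. With the MT share as a covariate the median was -1.02, and with the MT class as a term it was -0.88. H2-DMa, which loads peptides on MHC class II, stood at 233 and 116 in Free-MK1775, 131 and 126 in Lipo-MK1775, 24.6 and 42.7 in Free-MK1775+NLG919, and 137 and 98.8 in Lipo-MK1775+NLG. Among the 8 libraries it was lowest in both of Free-MK1775+NLG919, but the controls stood at 7.70 and 123, and its difference of -1.22 was -0.50 with assembled transcripts added. Cd209a, a dendritic cell lectin, had a difference of -1.15, with its highest level, 14.9, in Lipo-MK1775 replicate 2, and it was 0.15 without the 3 libraries.

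Macrophage and monocyte genes were divided, 9 of 19 higher and 10 lower, with a median of -0.12. Cd163, a haemoglobin scavenger receptor of resident macrophages, stood at 7.90 and 19.9 in Free-MK1775, 24.8 and 118 in Lipo-MK1775, 3.03 and 5.62 in Free-MK1775+NLG919, and 11.9 and 16.9 in Lipo-MK1775+NLG, with the controls at 16.2 and 20.4. Its log2 difference of -1.63 was -0.48 without the 3 libraries of high MT share and -1.08 without Lipo-MK1775 replicate 2. Cx3cr1, the fractalkine receptor, was at 17.7 to 38.5 with NLG919 and at 3.87 to 28.6 without, a difference of 1.40 that was 0.78 without the 3 libraries. Neither passed the test (limma adjusted p = 0.833 and 0.755), and in both genes the arms overlapped.

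Neutrophil genes were the list with the highest median, 0.74, and all 18 tested were higher (background 71.1% higher), with 0 called and 0 separated. The mean log2 level of the 18 genes was 5.04 and 5.25 in Free-MK1775, 5.25 and 4.92 in Free-MK1775+NLG919, 3.58 and 4.70 in Lipo-MK1775, and 5.90 and 5.77 in Lipo-MK1775+NLG. The median was 1.59 within Lipo, where both libraries without NLG919 are of high MT share, and -0.27 within Free, where 8 of 18 were higher. For all genes it was 0.71 within Lipo and -0.38 within Free. The interaction was called in 0 of these genes, and the difference between the forms was not tested for the list. Without the 3 libraries of high MT share, 15 of 18 were higher and the median was 0.47. Retnlg, which encodes a resistin-like protein of neutrophils, stood at 36.3 and 58.1 in Free-MK1775, 9.84 and 91.7 in Lipo-MK1775, 54.9 and 100 in Free-MK1775+NLG919, and 162 and 144 in Lipo-MK1775+NLG. Its log2 difference was 1.48 (SE 0.60, limma adjusted p = 0.893), from 0.70 without Lipo-MK1775 replicate 1 to 2.25 without replicate 2, and the controls stood at 71.4 and 62.5. Ngp, a granule protein gene, stood at 0.360 and 4.27 in Lipo-MK1775 and at 18.0 to 77.0 in the other 6 libraries, and its difference of 1.67 was -0.11 without the 3 libraries. S100a8 and S100a9, which encode the 2 chains of calprotectin and were picked after their values had been seen, had differences of 0.76 and 0.53, with overlapping arms. Without Lipo-MK1775 replicate 1 these were 0.34 and 0.072, and without replicate 2 they were 1.18 and 0.99.

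Genes of the ferroptosis pathway, the iron-dependent death by lipid peroxidation that the series' title names, showed no separation apart from the iron genes above. Gpx4, the enzyme that reduces lipid peroxides, was at 687 to 924 with NLG919 and at 656 to 913 without, a log2 difference of 0.0043 (SE 0.15) that was -0.26 without the 3 libraries of high MT share. Acsl4, which makes the lipids that peroxidise, was at 26.9 to 116 and at 25.2 to 96.3, a difference of 0.28 (SE 0.41) that was -0.11 without them. Slc7a11, the cystine carrier, was at 0.150 to 2.31 and was not tested. Of the ferroptosis defence genes, 16 of 21 were higher, with a median of 0.10, and of the drivers 11 of 20, with a median of 0.03. Alox15, a lipoxygenase among the drivers, had its highest level, 16.8, in Free-MK1775+NLG919 replicate 2 and was at 0.357 to 4.45 elsewhere, and its difference of 0.58 was -0.24 without that library. In the list of glutathione, thioredoxin and NRF2 genes, 22 of 24 were higher, but the median was 0.16, that of all genes. Gclc, the first enzyme of glutathione synthesis, stood at 0.147 in Lipo-MK1775 replicate 1 and at 13.3 to 35.7 elsewhere, and its difference of 1.16 was 0.25 without that library. Gsta4, a glutathione transferase that removes lipid aldehydes, stood at 42.6 and 30.4 in Free-MK1775, 9.77 and 15.1 in Lipo-MK1775, 58.6 and 60.1 in Free-MK1775+NLG919, and 42.6 and 30.8 in Lipo-MK1775+NLG. Its difference of 1.10 was 0.24 without the 3 libraries. Wee1, the target of MK1775, was at 9.70 to 27.5 with NLG919 and at 14.3 to 33.8 without, a difference of -0.15 (SE 0.28) that was -0.35 without the 3 libraries. Both controls of Wee1, 34.1 and 36.7, lay above all 8 libraries, and the mitosis list had 15 of 24 genes higher and a median of 0.04. Within Free, 0 of 24 mitosis genes were higher, with a median of -1.01, and within Lipo 23 of 24, with 1.09. For all genes the median was -0.38 within Free and 0.71 within Lipo. Without the 3 libraries, 1 of 24 mitosis genes was higher and their median was -0.17.

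**Figure D4:**
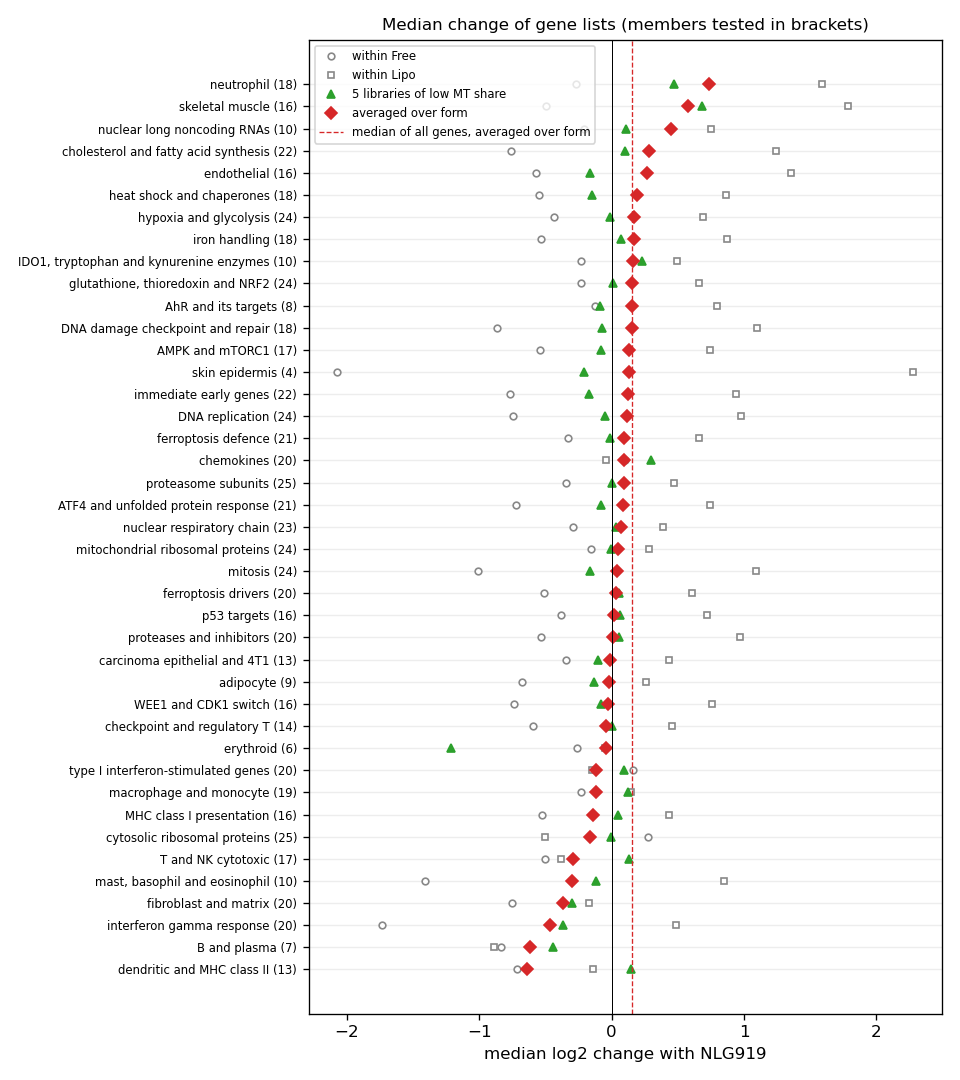
Median log2 difference with NLG919 of the 41 gene lists, averaged over form (red diamonds), within Free (circles), within Lipo (squares) and among the 5 libraries of low MT share (green triangles); the dashed line is the median of all genes, 0.15. In 33 of 41 lists the circle lies below 0 and the square above it, and neutrophil genes are at the top with 0.74. The median of all genes is -0.38 within Free and 0.71 within Lipo.

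With the common sum, the average combined values of opposite sign in the 2 forms for most gene lists. The median gene stood at -0.38 within Free and at 0.71 within Lipo, and 33 of the 41 lists had a median below 0 within Free and above 0 within Lipo, 3 the reverse and 5 the same sign in both. This shift of the whole table depended on the scaling. After median-of-ratios scaling the median gene stood at -0.01 within Free and 0.05 within Lipo, and after quantile scaling at -0.01 and 0.04. The sign of a list median within a form is therefore to be read beside the median gene. The libraries of high MT share lie on opposite sides of these contrasts: both libraries of Lipo-MK1775 within Lipo, and 1 library of Free-MK1775+NLG919 within Free. Within Lipo, NLG919 and the MT share cannot be told apart. Leaving out the 3 libraries, the sign of the median differed in 19 of the 41 lists.

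The difference between the forms was tested as the interaction, (Lipo-MK1775+NLG minus Lipo-MK1775) minus (Free-MK1775+NLG919 minus Free-MK1775). It was called in 11 genes (0.0797% of those tested), above 0 in 10 (0.0724%) and below 0 in 1 (0.00724%), while 5440 genes (39.4%) had an unadjusted p under 0.05. The call of single genes was not stable, since 0 genes were called with the replicate block and 3651 with assembled transcripts added. Nptx1, a neuronal pentraxin gene, stood at 86.6 and 75.5 in Free-MK1775, 38.0 and 26.2 in Free-MK1775+NLG919, 13.2 and 17.0 in Lipo-MK1775, and 89.4 and 80.7 in Lipo-MK1775+NLG. It was lower with NLG919 within Free and higher within Lipo, and this difference between the forms passed the test (interaction 3.75, limma adjusted p = 0.0387), and with assembled transcripts added the interaction was 3.70. Usp37, a deubiquitinase gene, stood at 9.90 and 11.4 in Free-MK1775, 0.0885 and 0.00342 in Free-MK1775+NLG919, 0.0786 and 0.173 in Lipo-MK1775, and 10.6 and 6.38 in Lipo-MK1775+NLG. Its interaction of 6.52 was 2.15 with assembled transcripts added, when Free-MK1775+NLG919 stood at 11.7 and 4.18 and Lipo-MK1775 at 7.36 and 6.18. The same layout, with Free-MK1775+NLG919 and Lipo-MK1775 low together, was present in Sec24a and Ric1, of membrane traffic, in Calr4, a calreticulin-family gene, and in Amot, a junction protein gene. It was also present in Arl6ip5, Bbx and Nptn. The interactions of these 7 genes ran from 2.80 to 7.13, and with assembled transcripts added from 1.73 to 3.78. The layout was then not kept in most of them. Free-MK1775+NLG919 replicate 1 stood at 16.2 in Sec24a, 222 in Arl6ip5 and 201 in Nptn. Free-MK1775 stood at 16.9 and 21.9, 216 and 214, and 244 and 190 in these genes. The same library rose to 13.1 in Ric1, 8.99 in Amot and 16.7 in Bbx. In Calr4 it stayed low, at 0.962 beside 4.33 and 8.44 in Free-MK1775. The other 2 called genes carry the names Mir7678 and Mir703, which stand for small RNA loci inside other genes.

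The 5 genes with the lowest p below 0 among those with a protein-coding symbol did not pass the test. They were Hnrnpa2b1, a splicing factor gene (interaction -2.25), Mast4, a kinase gene (-3.98), Hcfc1r1 (-3.73), Trp53i11 (-3.49) and Cyb5r4, a reductase gene (-3.88). Cyb5r4 stood at 1.19 and 0.595 in Lipo-MK1775+NLG and at 15.9 to 34.0 in the other 6 libraries. With assembled transcripts added, Lipo-MK1775+NLG stood at 34.0 and 29.2 and the interaction was 0.83.

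**Figure D5:**
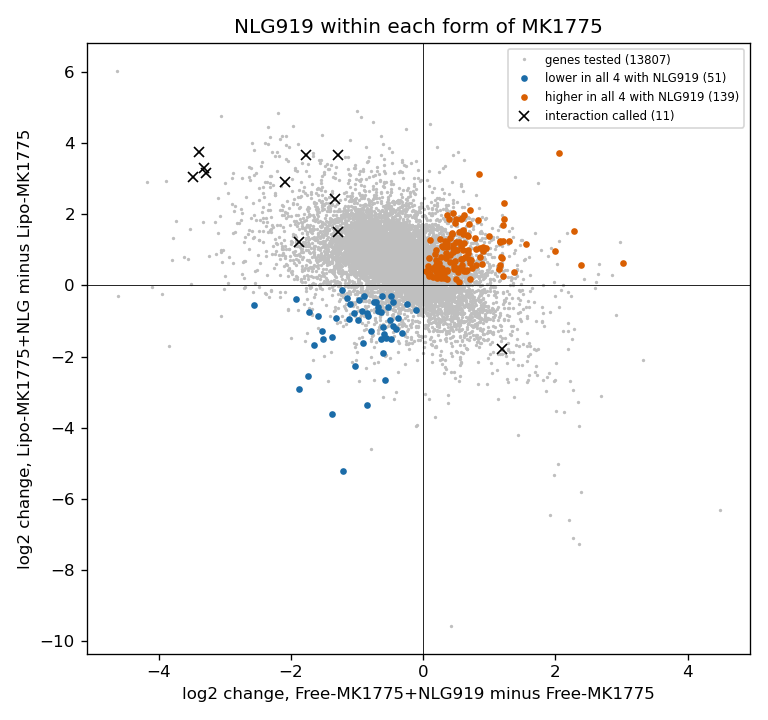
Log2 difference with NLG919 within Free (horizontal) against within Lipo (vertical) for the 13807 genes tested; blue and orange mark the 51 lower and 139 higher separating genes, crosses the 11 called interactions. Most genes lie left of 0 within Free and above 0 within Lipo, and 10 of the 11 crosses lie in that upper left part of the plot. Of the 3 libraries of high MT share, 1 enters the horizontal axis and 2 the vertical.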

How the data were processed

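The deposited values were FPKM per transcript, which the authors computed for 161762 transcripts in 10 libraries. FastQC, Trim Galore, HISAT2 and StringTie on GRCm39 are named, without versions, per the submitters' processing notes; an RNeasy mini plus kit and a NEBNext Ultra kit are named per the labels' protocols. Neither the strand setting nor the annotation release is stated there. Antisense and overlapping genes may therefore hold each other's reads, and 8992 of the tested genes overlap another symbol. Because MT transcripts lie inside the deposited FPKM totals, a high MT share lowers every nuclear FPKM of that library, which is why the MT rows were removed and the rest rescaled. Library sizes in reads were not analysed here, so no count interval is given.

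FPKM was summed per gene name over transcripts that carry a name (21051 of the transcripts carry none), the 46 MT transcripts were left out, and the 52287 nuclear names were rescaled to a sum of 1000000. Genes at 1 or more in at least 4 of the 8 libraries were tested (13807; 38480 were not). limma 3.58.1 in R 4.3.3 fitted a mean per group with a variance trend to log2(rescaled FPKM + 1), and the two-sided moderated test was adjusted by Benjamini-Hochberg over all tested genes. Log2 differences are on this scale, which understates those of low genes. The steps were tested on simulated data of the same design, with 100 genes changed by a log2 of 1 and 100 by 2. Of these, 19% and 87% were called, with 7 false calls. The changed genes were taken above a minimum mean level, and the simulated noise was independent between libraries. In that setting most changes of the smaller size were missed, and genes of low level were not covered. The alternatives were 23 settings of filter, pseudocount, scaling, covariates and libraries, 1 of them (MT class as a term) added after the data were seen, as was the overlap that defines the retained genes.

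Predicted genes and pseudogenes were counted but not named, and numbered miRNA loci were left out in the same way after the data were seen. The genes named were the 12 largest of the other separating genes in each direction, the separated or largest members of gene lists, the 5 lowest p-values of the interaction in each direction, all called genes and 16 followed genes. Of 122 genes so named, 49 were set aside for length, of which only Oas2 is given, and 13 were added after their values were seen. The members, the 41 lists and these rules were chosen with earlier results of these data known.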

Additional observations from a re-analysis of the deposited data

Results flagged for a closer look

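In 11 genes the effect of NLG919 differed between the Free and Lipo forms by limma's test of the interaction at an adjusted p under 0.05. The interaction, on the log2 scale and as Lipo effect minus Free effect, was 7.13 for Sec24a, 6.62 for Ric1, 6.52 for Usp37, 6.45 for Amot, 5.45 for Mir7678, 5.00 for Calr4, 4.96 for Bbx, 3.75 for Nptx1, 3.09 for Arl6ip5 and 2.80 for Nptn, and it was -2.98 for Mir703. In the 10 genes above 0, the libraries of Lipo-MK1775 and Free-MK1775+NLG919 were low and those of Free-MK1775 and Lipo-MK1775+NLG high, from named transcripts alone. In Mir703 the order was the reverse. With assembled transcripts added, Free-MK1775+NLG919 replicate 1 was no longer low in several of the 10, such as Sec24a at 16.2 and Arl6ip5 at 222. With assembled transcripts added, the interaction of Mir7678 was 5.28 and that of Mir703 was -3.05, close to the values from named transcripts alone. Their names stand for small RNA loci, which libraries of this kind do not measure as mature miRNA, and the host transcripts were not told apart from them.

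The MT transcripts were in no comparison. Their share of the summed FPKM was 47.3% in Free-MK1775+NLG919 replicate 2, 64.1% in Lipo-MK1775 replicate 1 and 56.0% in Lipo-MK1775 replicate 2, above the control libraries at 4.79% and 3.70%. Transcripts without a gene name were left out of the main values as well. Their share of the nuclear FPKM was 16.7%, 19.6% and 18.4% in the same 3 libraries, above the controls at 14.2% and 13.3%. The part of either share in the gene differences was not tested beyond the alternatives given below.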

How the results depend on the processing

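For the effect averaged over form, limma called 0 genes in the fit as reported and under most alternatives. It called 51 with the MT share as a covariate (all lower, among them Cd274, Rarres2 and H2-T22), 1 on deposited FPKM without rescaling (Rnase2a, lower), and 0 to 27 when 1 library was left out. The 27, all lower, came without Free-MK1775+NLG919 replicate 1, where the lone Free-MK1775+NLG919 library has a high MT share; 3 came without replicate 2 of that group and 2 without Lipo-MK1775+NLG replicate 2. A lone sample is assumed to vary like the other groups.

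The interaction, called in 11 genes, was called in 4 with a pseudocount of 0.1, 18 with 5, 0 without a filter and with a filter at 5, 3 and 2 after median-of-ratios and quantile scaling, 4448 without rescaling, 3651 with assembled transcripts added, 2298 with all 10 libraries, 0 with the MT share as a covariate, and 0 to 7739 when 1 library was left out, the highest without Free-MK1775+NLG919 replicate 1 and 1065 without replicate 2. With the replicate number as a block, 0 genes were called for the average and 0 for the interaction. No sign that the numbers pair the samples was seen: same-numbered libraries had correlations of -0.144 to 0.0709 between their deviations from the group means. Such correlations cannot exclude a pairing. The additive fit and the fit with the MT class were built without an interaction term, and without the 3 libraries of high MT share no library of Lipo-MK1775 is left for one.

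Separating genes numbered 190, against 327 without a filter, 113 with a filter at 5, 124 without rescaling, 278 to 1219 when 1 library was left out (the highest without Free-MK1775+NLG919 replicate 2) and 2510 without the 3 libraries, where 3 against 2 libraries separate more easily. Depth limits genes near 1 rescaled FPKM most. The cause of these moves was not tested.

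The sign of the log2 difference turned in some named genes. With assembled transcripts added it was 0.22 for Taok1, 0.10 for Hspa8, 0.042 for Ifi203, -0.65 for Ido2 and -0.0036 for Gpx4, and the interaction was 2.39 for Mast4 and 0.83 for Cyb5r4. Without the 3 libraries it was 0.15 for Cd209a, -0.11 for Ngp, -0.054 for Gclc, -0.26 for Gpx4, -0.11 for Acsl4, 0.10 for Cd8a and 0.59 for Cxcl9. With the MT share as a covariate it was -0.49 for Acsl4, -0.65 for Gzmb and -0.37 for Ifng, and with the MT class as a term -0.022 for Gpx4, -0.11 for Acsl4, -0.14 for Gzmb and -0.091 for Ifng. After median-of-ratios and quantile scaling it was -0.15 and -0.083 for Gpx4 and -0.10 and -0.089 for Gzmb. Without rescaling it was 0.11 for Wee1, 0.15 for Cd8a and 0.0023 for Irf1. A pseudocount of 5 gave 0.013 for Cd8a and a pseudocount of 0.1 gave -0.032 for Ifng. When 1 library was left out, the difference ran from -2.32 to 0.18 for Cd274, -0.24 to 1.40 for Alox15, -0.38 to 0.077 for Wee1, -0.10 to 0.11 for Gpx4, -0.23 to 0.80 for Acsl4, -0.77 to 0.59 for Cd8a, -0.41 to 0.51 for Gzmb, -0.20 to 0.61 for Ifng and -0.74 to 0.12 for Irf1, the ends of each range being without Free-MK1775+NLG919 replicate 1 or 2. It ran from -0.25 to 0.14 for Foxp3 and from -1.12 to 0.59 for Cxcl9, the ends being without Lipo-MK1775+NLG replicate 1 or 2. No gene had passed the test of the average as reported.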

Other observations

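Endothelial genes were higher with NLG919 in all 16 tested (background 71.1% higher), with a median log2 difference of 0.27 beside 0.15 for all genes. The median was 1.35 within Lipo and -0.57 within Free, beside 0.71 and -0.38 for all genes. Without the 3 libraries of high MT share the endothelial median was -0.17. Skeletal muscle genes were higher in 14 of 16 (background 71.1% higher), with a median of 0.58. With the MT class as a term 9 of 16 were higher, and with the MT share as a covariate 2 of 16, with a median of -0.82. The source of the muscle RNA was not tested. The mean log2 level of the muscle genes ran from 1.17 to 5.16 with NLG919 and from 1.60 to 4.78 without, so the amount of muscle RNA varied within both arms. Skin epidermis genes reached a mean log2 level of 5.71 in Free-MK1775 replicate 2 and 5.61 in Lipo-MK1775+NLG replicate 2, against 1.05 to 2.07 in the other 6 libraries.

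Cytosolic ribosomal protein genes were lower with NLG919 in 22 of 25, with a median of -0.16. Their mean log2 level was 11.49 to 11.54 in the 3 libraries of high MT share and 10.92 to 11.02 in the other 5. Cholesterol and fatty acid synthesis genes were higher in 15 of 22, with a median of 0.28, and stood at a mean log2 level of 4.13 to 4.45 in the 3 libraries of high MT share and at 5.52 to 5.88 in the other 5. The part of the MT share in these differences was not tested.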
